A study of Homo sapiens with 8 samples.

Results

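CHD4 sites that were constant without DOC1 and patchy with it are described here. They are 1135 genomic regions, of 18808 in all, that held a peak in each of the 3 CHD4 libraries of lacZ cells and in exactly 1 or 2 of the 3 CHD4 libraries of DOC1 cells. SCC9, an established cell line from a squamous carcinoma of the tongue, was the source of all libraries. The lacZ group is labelled as lacking DOC1 (-DOC1) and the DOC1 group as having it (+DOC1). How DOC1 was introduced, and whether either group is 1 clone, is not given in the sources used here. Each group had 3 libraries with an antibody to CHD4 and 1 with IgG. The IgG samples were not analysed here, though the authors' peak calling may have used them. Regions were made by merging peaks of the 6 deposited lists that shared at least 1 bp, in hg19 coordinates, so presence and absence of peaks chose the members. Everything derived from that choice is a description, and no test was run on it.

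CHD4 is the motor subunit of NuRD, a complex that moves nucleosomes with the energy of ATP and removes acetyl groups from histones. DOC1, also named CDK2AP1, is a small subunit of that complex. ChIP-seq enriches DNA fragments bound by a protein and reads them, so a peak marks a stretch where reads pile up above the local background. A peak list is a yes or no record: a site without a peak can still carry signal below the threshold of the peak caller.

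The 6 lists held 2812 to 11032 peaks. The depth, estimated from the listed peak values with a genome size that was assumed and the shortest peak taken as fragment length, came to about 25.1, 17.6 and 14.8 M reads (M for mega) in lacZ 1, lacZ 2 and lacZ 3 and to 11.0, 14.7 and 27.7 M reads in DOC1 1, DOC1 2 and DOC1 3. DOC1 2 stood apart by its weak signal: its peaks had a median of 1.02 RPM, the reads at the summit per M reads of the library, against 1.23 to 1.53 in the other 5 lists. Separate cultures are not named for the numbered libraries, so the spread between them may be technical. Levels set between libraries depend on the fragment length taken for each.

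Most sites that recurred without DOC1 belonged to this class. The rule was met by 6.03% of all merged regions. Of the 1874 regions present in all 3 lacZ libraries, 1135 (60.6%, Wilson 95% interval 58.3 to 62.8%, counting error only) were patchy with DOC1. Another 518 were present in all 3 DOC1 libraries and 221 in none. The interval treats regions as independent and leaves out the spread between libraries, which was far wider. Among regions of only 1 or 2 lacZ libraries, 50.3% had 1 or 2 DOC1 libraries. In the mirror class, 303 of 1005 regions (30.1%) constant with DOC1 were present in only 1 or 2 lacZ libraries, and 86.1% of these 303 lacked lacZ 2. The number of members depended on the libraries used, most on DOC1 2 and lacZ 2. Without DOC1 2 it was 454 (24.2% of the lacZ-constant regions), without DOC1 3 786 (42.0%) and without DOC1 1 1029 (54.9%). In these settings the rule asks for exactly 1 of 2 DOC1 libraries. Without lacZ 2 it was 2019 and without lacZ 3 it was 1468, since leaving out a lacZ library loosens the rule.

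DOC1 2 was the library that was missing. It had a peak in 44 of the 1135 members (3.88%), while DOC1 1 had one in 750 (66.1%) and DOC1 3 in 1060 (93.4%). Over all merged regions, the shares held by DOC1 1, DOC1 2 and DOC1 3 were 40.3%, 18.2% and 57.7%. The largest pattern was the absence of DOC1 2 alone, in 678 members (59.7%). Both DOC1 1 and DOC1 2 were absent from 344 members (30.3%), which DOC1 3 alone held. DOC1 2 and DOC1 3 were absent from 69, which DOC1 1 alone held, and DOC1 1 alone was absent from 38. Only 3 members lacked DOC1 3 alone, and only 3 were held by DOC1 2 alone. Read as a whole, 719 members (63.3%) had 2 DOC1 libraries and 416 (36.7%) had 1.

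**Figure D1:**
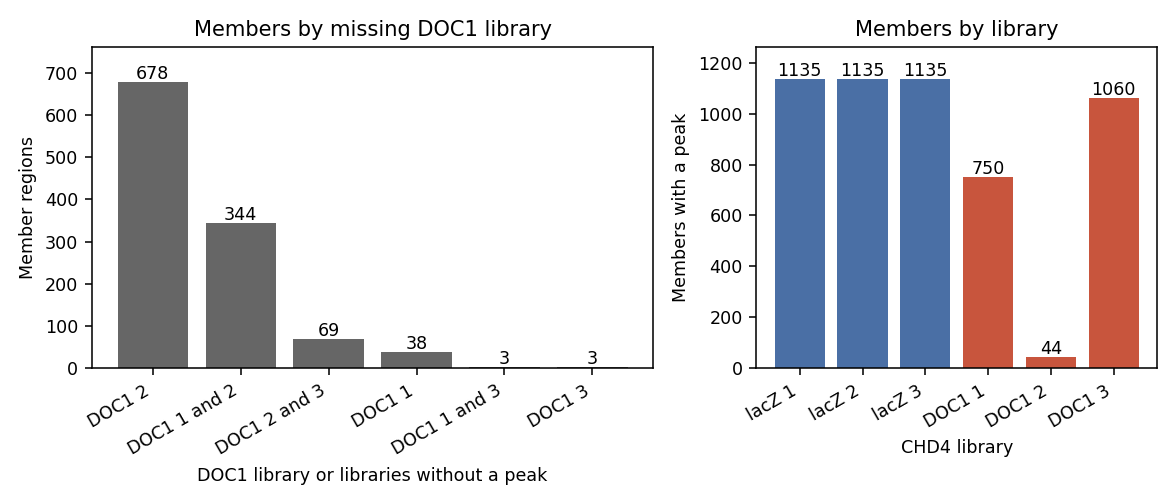
Left, number of member regions by the DOC1 library or libraries without a peak. Right, number of members with a peak in each CHD4 library, lacZ in blue and DOC1 in red. DOC1 2 alone is missing from 678 members, and DOC1 2 holds a peak in 44 members against 750 for DOC1 1 and 1060 for DOC1 3.

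The same order of libraries was seen outside the class. Among the other regions with peaks of exactly 2 DOC1 libraries, 92.6% paired DOC1 1 with DOC1 3, 5.44% paired DOC1 2 with DOC1 3 and 1.99% paired DOC1 1 with DOC1 2. Among members the shares were 94.3%, 5.29% and 0.417%, of which the first 2 are close to the background and the last, from 3 members, is lower. Among the other regions with 1 DOC1 library, DOC1 3 alone made up 53.6%, DOC1 1 alone 25.4% and DOC1 2 alone 21%. Among members with 1 DOC1 library these shares were 82.7%, 16.6% and 0.721%. The order of the DOC1 libraries by members held is also the order of their peak numbers, 11032 in DOC1 3, 7834 in DOC1 1 and 3448 in DOC1 2, and its part in the patterns was not tested. In lists cut to equal length, 602 regions met the rule, of which 229 lacked DOC1 2 alone, 57 DOC1 1 alone and 19 DOC1 3 alone. Without lacZ 2 the number lacking DOC1 2 alone was 1113, and without DOC1 1, where the rule asks for 1 of 2 libraries, it was 1023. Without DOC1 2, 382 members lacked DOC1 1 and 72 lacked DOC1 3.

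CHD4 signal at the members in lacZ cells lay between that of sites never seen with DOC1 and that of sites always seen with it. The level in RPM was recovered from the fold and the p-value of each peak. The members had median levels of 1.91 in lacZ 1, 1.59 in lacZ 2 and 1.69 in lacZ 3, from 48, 28 and 25 reads. The mean of these 3 medians was 1.73 ± 0.166 (SD, n = 3 libraries). It was 1.36 ± 0.113 at the 221 regions without any DOC1 peak and 2.44 ± 0.265 at the 518 regions of all 6 libraries. Within each of the 3 lacZ libraries the medians had this order. Members with 2 DOC1 libraries reached 1.84 ± 0.199, and those with 1 reached 1.59 ± 0.143.

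**Figure D2:**
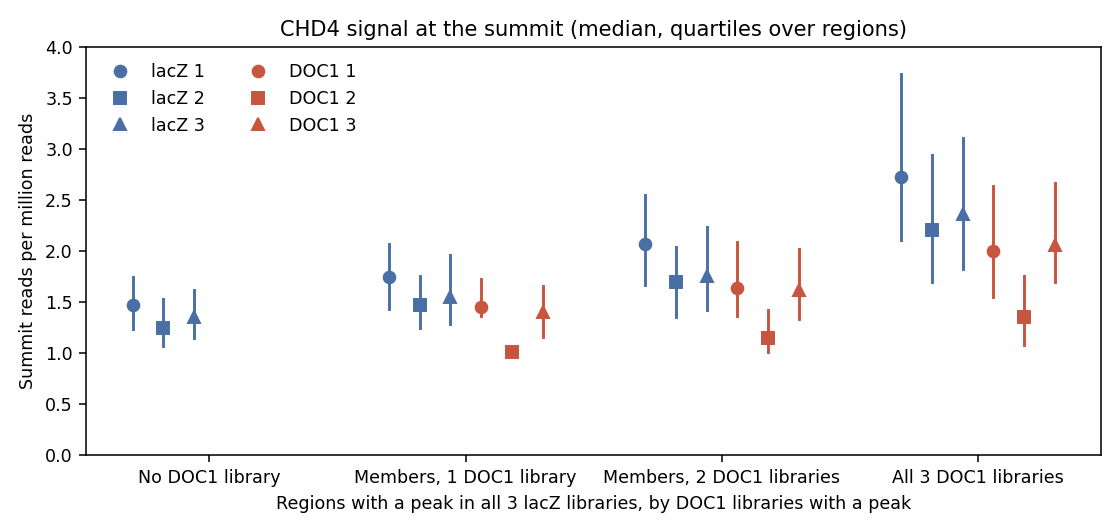
Level in RPM (reads at the summit per M reads) in each CHD4 library (points: median over regions; bars: quartiles; blue: lacZ, red: DOC1) for regions of all 3 lacZ libraries, grouped by the number of DOC1 libraries with a peak. DOC1 values use only regions where that library has a peak, 3 regions for DOC1 2 in the second group. Median lacZ levels rise from the left group to the right in each lacZ library, and DOC1 2 has the lowest median in each group where it occurs.

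Members were also ranked by fold enrichment, the authors' ratio of summit reads to local background within 1 list. Their median fold stood at the 79.5th percentile of lacZ 1, the 57.2nd of lacZ 2 and the 67.3rd of lacZ 3. In DOC1 1, DOC1 2 and DOC1 3 the members with a peak stood at the 56.1st, 46.9th and 61.8th percentiles, so the groups overlapped. These percentiles depend on the length of the lists and on which regions the rule admits. In lists cut to equal length, with the 602 regions that met the rule there, they were 71.0, 68.1 and 68.3 in lacZ 1, lacZ 2 and lacZ 3 and 45.4, 42.5 and 48.3 in DOC1 1, DOC1 2 and DOC1 3. Without DOC1 2, the percentile of the remaining 454 members was 33.5 in DOC1 1 and 48.7 in DOC1 3. Members held by DOC1 3 alone stood at the 45.0th percentile of that list, and those held by DOC1 1 alone at the 30.5th percentile of theirs. Those held by both reached the 68.1st and the 58.9th. In lacZ 1 the percentiles of these patterns were 79.1, 72.0 and 80.3 for DOC1 3 alone, DOC1 1 alone and both, and in lacZ 2 they were 59.5, 58.2 and 55.8.

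How often a DOC1 library held a lacZ-constant site went with the level of the site in lacZ. The 1874 lacZ-constant regions were sorted into 5 bins of equal size by their lowest summit level over the 3 lacZ libraries. DOC1 2 had a peak in 8.27% of the weakest bin (levels up to 1.19 RPM) and in 62.9% of the strongest (from 2.15). DOC1 1 went from 41.6% to 93.1% and DOC1 3 from 64.3% to 98.4%. Members made up 64.8% of the weakest bin, 70.7% of the next, then 69.5% and 61.3%, and 36.5% of the strongest. Within the members the makeup shifted too: in the weakest bin 127 had 1 DOC1 library and 116 had 2, and in the strongest these numbers were 25 and 112. In each bin DOC1 3 had the highest share, then DOC1 1, then DOC1 2, while their depths were 27.7, 11.0 and 14.7 M reads. The part of depth and of the threshold of the caller in these shares was not tested.

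**Figure D3:**
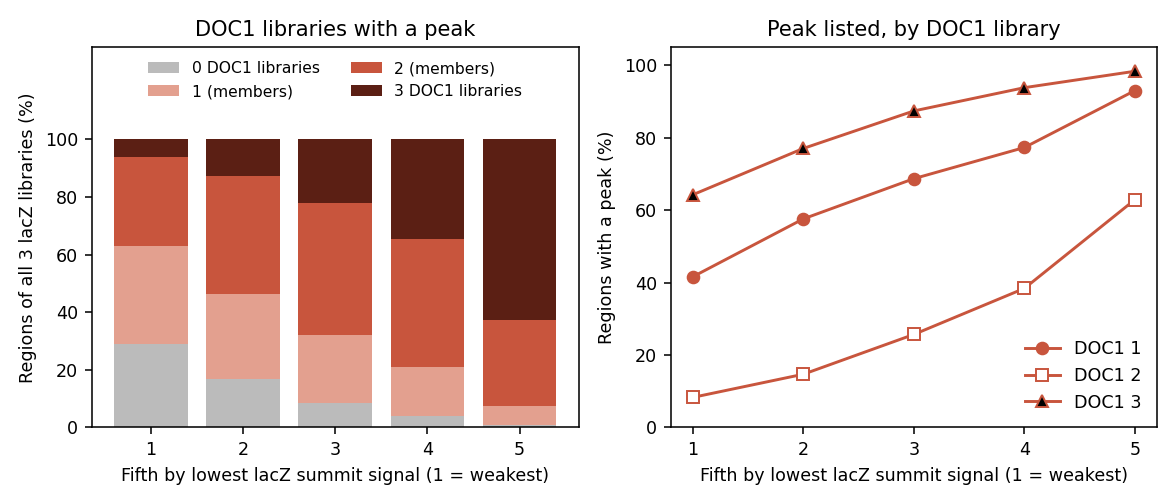
Regions of all 3 lacZ libraries in 5 bins by their lowest summit level in lacZ (374 or 375 regions each). Left, percent of regions with 0, 1, 2 or 3 DOC1 libraries. Right, percent with a peak in each DOC1 library. The share with a DOC1 2 peak rises from 8.27% to 62.9%, and members make up at least 61.3% of each bin except the strongest.

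Fold gave another picture than level at the weak end. Sorted by their lowest fold percentile in the lacZ lists, the lowest bin held a DOC1 1 peak in 74.1% of regions, more than the middle bin (55.1%), and a DOC1 3 peak in 89.6% against 78.9%. The regions of the lowest bin lay on high background, with a median of 4.00 in lacZ 1 against 2.00 in the middle bin. Background is given here as scaled by the factor of the library, described below, and is not in units of summit reads. The median level of these regions in lacZ 1 was 2.15 against 1.73 RPM in the middle bin. These sites had a low fold with high background and no lack of reads.

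Where a DOC1 library did list a peak, its level could be set against that of lacZ at the same region. The ratio of a DOC1 summit to the mean of the 3 lacZ summits at the same region had a median of 0.914 in DOC1 1 (750 members) and 0.827 at the 518 regions of all 6. In DOC1 3 these medians were 0.872 (1060 members) and 0.854. In DOC1 2 they were 0.650 (44 members) and 0.571. The ratio lay below 1 at 65.9% of the members in DOC1 1, at 95.5% in DOC1 2 and at 72.6% in DOC1 3. At the 518 regions of all 6 these shares were 74.9%, 98.3% and 73.2%, so a ratio below 1 was not particular to the members. Sites below the threshold have no value, so these ratios leave out the lowest DOC1 levels, which raises them. The rule also asks for a peak in all 3 lacZ libraries, which favours high lacZ values and lowers the ratio. The ratio rests on the estimated depths too, so the direction of its error is not known. Leaving out sites below the threshold raises the ratio more where lacZ levels are lower, as at members. Members and regions of all 6 are therefore not compared by it. The weakest peak of DOC1 2 had 0.610 RPM at its summit and the weakest peak of DOC1 3 had 0.686.

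**Figure D4:**
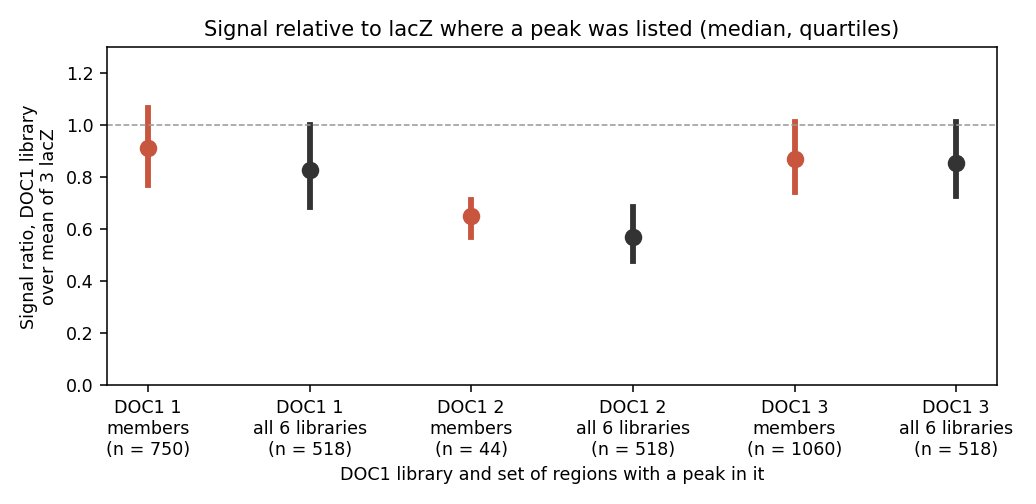
Signal of each DOC1 library relative to the mean of the 3 lacZ libraries at the same region, at members with a peak in that library (red) and at regions of all 6 libraries (black). Points are medians over regions and bars are quartiles. Medians lie between 0.827 and 0.914 for DOC1 1 and DOC1 3, and at 0.650 and 0.571 for DOC1 2.

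All listed DOC1 summits lay below all 3 lacZ summits in 400 members (35.2%), and all above them in 108 (9.52%). Over the 5230 regions with peaks of both groups the shares were 45% and 19%, but many of these regions have fewer peaks, and fewer values separate more easily. The 518 regions of all 6 libraries, which have more values each than a member, had shares of 37.8% below and 0.386% above. Since the number of values differs between these sets, nothing particular to the members is read from the shares. By pattern the share below was 27.6% for members lacking DOC1 2 alone and 50.9% for those held by DOC1 3 alone. Among the 69 held by DOC1 1 alone, 17 lay below and 25 above.

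Sites that were strong in lacZ cells could still be patchy. Of the 208 regions in the top 10% of all 3 lacZ lists by fold (90th percentile or higher), 83 were members, 120 had all 3 DOC1 libraries and 5 had none. These 83 were 7.31% of the members, against 11.1% of all lacZ-constant regions and 23.2% of the regions of all 6 libraries. Of the 83 members, 58 lacked DOC1 2 alone, 19 were held by DOC1 3 alone, 3 by DOC1 1 alone, and 3 lacked DOC1 1 alone. In 12 members without DOC1 2 the fold was also in the top 10% of both DOC1 1 and DOC1 3, as it was in 62 of the regions of all 6 libraries.

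Among the 12 members that ranked best by fold across the lacZ lists, 11 lacked DOC1 2 alone and 1 was held by DOC1 3 alone. DOC1 2 held none of the 12, DOC1 3 held all 12 and DOC1 1 held 11. Their lacZ folds ranged from 11.9 to 19.7, and their DOC1 folds from 3.93 to 11.2, though folds belong to their own lists. Their summit levels in lacZ 1, lacZ 2 and lacZ 3 had medians of 3.42, 2.78 and 3.11 RPM, and those in DOC1 1 and DOC1 3 had medians of 2.37 and 1.99. At 10 of the 12 every DOC1 level was below every lacZ level. Being picked for high lacZ rank and for a missing DOC1 peak, they say nothing on how often this occurs.

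**Figure D5:**
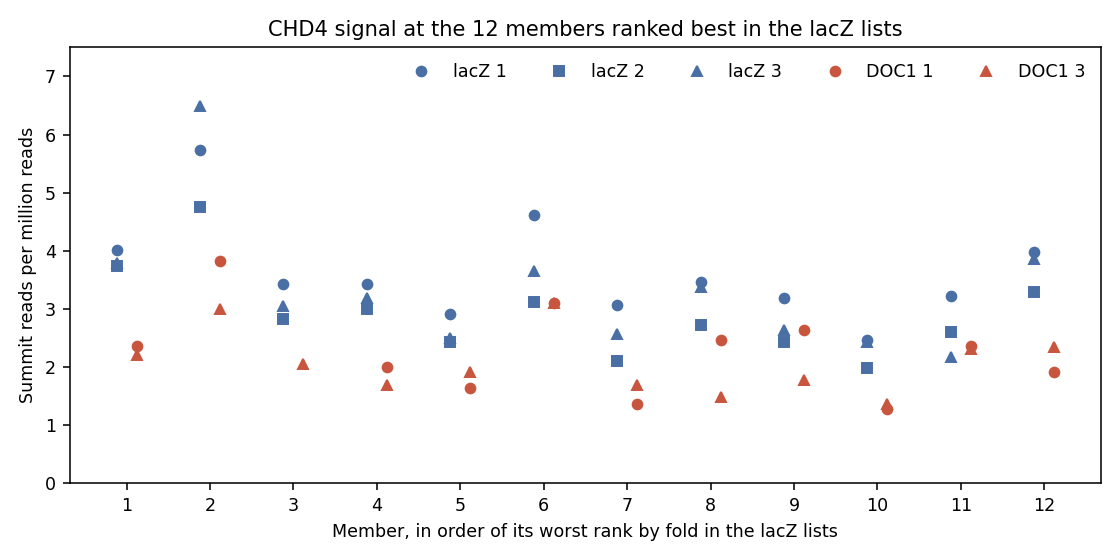
Level in RPM (reads at the summit per M reads) at the 12 members ranked best by fold in the lacZ lists, in order of their worst rank. Blue marks are lacZ libraries and red marks DOC1 libraries, each point 1 library, and a missing mark means no peak. DOC1 2 has no mark at any of the 12, and at 10 of them every red mark lies below every blue mark.

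The best ranked member was chr3:190142236-190142745. It had 101, 66 and 56 reads at the summit in lacZ 1, lacZ 2 and lacZ 3, and 26 and 61 in DOC1 1 and DOC1 3. In RPM these were 4.02, 3.74 and 3.79 in lacZ and 2.37 and 2.20 in DOC1, and the groups did not overlap. The nearest DOC1 2 peak was 486360 bp away.

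The strongest of the 12 by level was chr1:43991637-43992390, with 5.73, 4.76 and 6.50 RPM in lacZ 1, lacZ 2 and lacZ 3. DOC1 1 and DOC1 3 had 3.83 and 3.00 there, below all lacZ values. The nearest DOC1 2 peak lay 167035 bp off. The member chr17:39677493-39678455 was the only 1 of the 12 held by DOC1 3 alone. Its levels were 3.42, 2.83 and 3.05 in lacZ and 2.06 in DOC1 3, and its widest lacZ peak covered 942 bp. Peaks of DOC1 1 and DOC1 2 lay 15934 and 25678 bp from it.

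The members chr20:32891084-32891783 and chr9:139839177-139839760 were high in both groups. On chromosome 20 the levels were 4.62, 3.12 and 3.66 in lacZ and 3.10 in each of DOC1 1 and DOC1 3. On chromosome 9 they were 3.23, 2.61 and 2.17 in lacZ and 2.37 and 2.31 in DOC1, so that the groups overlapped. DOC1 2 nevertheless had no peak within 46328 bp of the latter and within 901511 bp of the former. The remaining 7 of the 12 were chr5:137968461-137968923, chr5:133374904-133375529, chr12:123205037-123205828, chr1:1672216-1672747, chr12:113652761-113653329, chr2:28819599-28820224 and chr20:10331197-10332048. At chr2:28819599-28820224 the DOC1 1 and DOC1 3 levels were 1.28 and 1.37 against 1.98 to 2.47 in lacZ.

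Members held by 1 DOC1 library included sites with ample signal in it. At chr6:4776064-4776375, held by DOC1 1 alone, the summits had 55, 36 and 32 reads in lacZ and 23 in DOC1 1. The fold of 11.5 in DOC1 1 was in the range of the lacZ folds (11.4 to 12.5). A DOC1 3 peak lay only 253 bp outside this region. The member chr15:68644472-68645010, held by DOC1 3 alone, had 60, 34 and 31 reads in lacZ and 42 in DOC1 3, which is 1.52 RPM. At chr17:41777518-41778434, with the same pattern, the levels were 3.90, 3.17 and 2.37 RPM in lacZ and 2.31 RPM in DOC1 3. The next members held by DOC1 1 alone, chr19:39420719-39421168 and chr11:122057175-122057636, had DOC1 1 levels of 1.55 and 1.64, and a DOC1 3 peak lay 2575 bp from the latter.

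The rarest patterns had 3 members each. The 3 members that lacked DOC1 3 alone were chr3:129607653-129608152, chr2:192756928-192757400 and chr9:90020511-90021154. At chr9:90020511-90021154 the 28, 18 and 14 lacZ reads gave levels of 1.11, 1.02 and 0.948 RPM. DOC1 1 had 23 reads there from a library of 11.0 M reads, and its fold was 12.7 against 4.36 to 6.55 in the lacZ lists. The 3 held by DOC1 2 alone were chr7:148663157-148663582, chr6:133930719-133931120 and chr6:35116177-35116604, with DOC1 2 levels of 0.949, 1.08 and 1.02 from 14, 16 and 15 reads. At chr6:35116177-35116604 a DOC1 1 peak lay 1757 bp outside the region. The best ranked members that lacked DOC1 1 alone were chr11:72151049-72151655, chr22:18484267-18485045 and chr1:6296190-6296680, with DOC1 2 levels of 1.29, 1.08 and 1.22.

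Members near the edge of the rule were also looked up. The sole DOC1 peak of chr4:13989741-13990876 had the lowest −log10 q-value of any member with 1 DOC1 library, 2.08, while the lowest DOC1 value among regions of all 6 libraries was 2.45, at chr7:17139126-17139721 in DOC1 2. The sole DOC1 peak had a −log10 q-value under 3 in 12 of 416 members, and 20 of the 518 regions of all 6 had a DOC1 peak under 3. The weakest lacZ peak was under 3 in 39 of the 1135 members. DOC1 signal that just missed the threshold is not in the lists and was not counted. Keeping only peaks with a value of 3 or more left 1102 members.

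The nearest peak of a missing library was mostly more than 10 kb away. Of the 1091 members without DOC1 2, 22 (2.02%) had a DOC1 2 peak within 1 kb and 144 (13.2%) within 10 kb, with a median distance of 119092 bp. Over all other regions without DOC1 2 these shares were 1.89% and 8.99%. Of the 385 members without DOC1 1, 9.09% had a DOC1 1 peak within 1 kb and 34.5% within 10 kb, against 8.67% and 26.3% of all other regions without DOC1 1. Of the 75 without DOC1 3, 10 (13.3%) had a DOC1 3 peak within 1 kb and 38.7% within 10 kb, against 10.4% and 28.1% of all other regions without DOC1 3. The distance also depends on how many peaks a list holds.

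Members were longer than the average region and shorter than the sites of all 6 libraries. Their merged length had a median of 650 bp (quartiles 513 and 873 bp), against 379 bp for all 18808 regions, 494 bp for lacZ-constant regions without DOC1 and 826.5 bp for the regions of all 6. Merged length grows with the number of peaks merged. Within single lists the order was the same in lacZ 1, where the widths had medians of 450, 515 and 643.5 bp. Most members, 977 (86.1%), consisted of 1 peak per library. The longest member and the one with most peaks was chr22:39570332-39573032, 2701 bp with 11 peaks. The next in length were chr6:27144254-27146615 (2362 bp) and chr7:2568474-2570671 (2198 bp), and the next in number of peaks was chr17:59488165-59490224 (10 peaks). With 9 peaks each, 7 members tied for the next place, among them chr11:9779920-9782062 and chr7:2568474-2570671. The 5 named here lacked DOC1 2 alone.

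Within members, summits of DOC1 and lacZ libraries fell close together. The distance between the summits of 2 lacZ libraries had medians of 52, 55 and 55 bp. Between DOC1 3 and the lacZ libraries the medians were 56, 59 and 59.5 bp, and between DOC1 1 and the lacZ libraries 70, 70.5 and 70.5 bp. DOC1 1 was also the library with the fewest reads. At the 678 members lacking DOC1 2 alone, levels at single sites followed each other over the sites. Spearman's rho over these 678 sites was 0.758, 0.726 and 0.691 for the lacZ pairs and 0.70 for DOC1 1 with DOC1 3. It was 0.499 to 0.646 for the 6 pairs between groups. At the 518 regions of all 6 libraries rho was 0.857 to 0.877 for the lacZ pairs and 0.710 to 0.775 for the DOC1 pairs. Between groups it was 0.654 to 0.813 there, so the ranges within DOC1 and between groups overlapped. The sites of a pair share their libraries and local background, so these values are given as a description.

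Members were spread over the autosomes and chromosome X. Chromosome 17 held 129 members (11.4%, against 7.15% of all regions), chromosome 19 held 83 (7.31% against 4.77%) and chromosome 20 held 68 (5.99% against 4.04%). Chromosome 3 held 42 (3.70% against 5.71%). Of the regions of all 6 libraries, 11.8% lay on chromosome 17 and 7.53% on chromosome 19, close to the members, and 8.88% on chromosome 20, above them. As a part of the lacZ-constant regions of a chromosome, members ranged from 50.0% on chromosome 21 (5 of 10) to 71.4% on chromosome X (10 of 14). On the chromosomes with 100 or more such regions the range was 55.7% to 63.3%. No member lay on chromosome Y.

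Members had other CHD4 regions near them more often than regions in general. Another region of any kind lay within 10 kb of 58.0% of members, against 48.8% of all regions and 63.5% of the regions of all 6 libraries. Another member lay within 10 kb of 135 members (11.9%), and 6.16% of all other regions had a member that close. When members less than 50 kb apart were chained, 818 stood alone and 317 (27.9%) formed chains, 33 of them with 3 or more members. Neighbours in a chain had the same DOC1 pattern in 88 of 181 pairs (48.6%), and the shares of the 6 patterns alone would give 45.4%.

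The longest chains held 5 members each. These chains were singled out after their values were seen. In chr19:2528514-2631863, 17 regions lay over 103.35 kb and none was present in all 6 libraries. Of its 5 members, 2 had DOC1 1 and DOC1 3, 1 had DOC1 1 alone and 2 had DOC1 3 alone. The member chr19:2618351-2619516 was held by both, with 54, 25 and 32 reads in lacZ 1, lacZ 2 and lacZ 3 and 16 and 38 reads in DOC1 1 and DOC1 3. The last member of the chain, chr19:2631407-2631863, had 25, 19 and 19 reads in lacZ, 46 reads in DOC1 3 and no peak in DOC1 1. In chr20:46012579-46093905, 9 regions lay over 81.327 kb, with 5 members and 1 region of all 6 libraries. A chain of 4, chr19:13227616-13278968, was held by DOC1 3 alone at each of its 4 members, with 26 to 38 reads in that library.

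Few members lay on very high background. In 12 members (1.06%) the background at the summit was over 4 times the list median in all 3 lacZ libraries, against 33 (6.37%) of the regions of all 6. Of these 12, 9 lay on chromosome 9, 2 on chromosome 13 and 1 on chromosome 17. All 12 lacked DOC1 2 alone. Their median level in lacZ 1 was 5.32 RPM and their median fold stood at the 1.17th percentile of that list, so that many reads went with a low fold.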

How the data were processed

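CHD4 ChIP-seq libraries (6, single reads of 50 bp) were analysed through the authors' peak lists. Per the submitters' processing notes, Trimmomatic 0.33, BWA 0.7.12-r1039, SAMtools 1.2 and MACS2 2.1.1.20160309 were used on hg19 (GRCh37). Neither commands nor a control for peak calling are stated in the labels. The local background behind fold and p-value may therefore come from a control library, such as the IgG samples, which was not tested. Each deposited list belongs to 1 library, with no pooling. The deposited fold is a ratio of summit reads to local background, the deposited p-value and q-value are given as −log10, and the deposited score is 10 times that −log10 q-value, cut to a whole number. The largest q-value listed was 0.00890 to 0.00972.

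Fold was taken as pileup plus 1 over background plus 1 and the p-value as a Poisson tail of both, as MACS2 is known to compute them. A whole read number per summit, times 1 factor per library, then matched the listed −log10 p within 0.001 for 100% of peaks in each list. This factor was 1 in DOC1 1 and DOC1 2, 0.562 in DOC1 3, and 0.476 to 0.809 in the lacZ libraries. Depth in reads used was the lowest recurring background, divided by the factor and by the shortest peak (219 to 269 bp, taken as fragment length), times an assumed 2.7e+09 bp. Summit levels in RPM (summit reads per M reads) rest on it. Libraries had 18 PCR cycles per the labels, and no molecular identifiers are named, so reads are not independent molecules.

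In a region with several peaks of a library, the one of highest fold was used. Named members are the 12 with the best worst rank by fold in the lacZ lists, the 3 best of each DOC1 pattern, and the 3 longest and 3 with most peaks (ties by position); others are marked. The planned gene lists, transcription start distances and motif searches were not used, since the gene tables at hand are of another build (GRCh38) than the peaks. The peak lists do not allow the identity of the cells to be checked. The members and all lists were chosen with earlier results of these data known. Scripts were tested on simulated data. Tools were matplotlib 3.10.9, scipy 1.17.1, pandas 2.3.3 and numpy 2.4.6 under Python 3.11.15.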

Additional observations from a re-analysis of the deposited data

How the results depend on the processing

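The number of members was close to 1135 with a stricter threshold, with summit windows and with gaps of up to 500 bp merged (1102, 1056 and 1134), and 95.3%, 88.9% and 98.7% of the members overlapped a member under these settings. In lists of equal length the count was 602, with 47.3% of the lacZ-constant regions, 229 lacking DOC1 2 alone and 19 lacking DOC1 3 alone. That setting drops the weaker peaks of the longer lists, and 43.6% of the members overlapped a member there. With summit windows, 12 lacked DOC1 3 alone. Leaving out 1 library at a time gave 454 to 2019 members and 24.2% to 62.0% of the lacZ-constant regions. It gave 40 to 382 lacking DOC1 1 alone, 697 to 1113 lacking DOC1 2 alone, 3 to 72 lacking DOC1 3 alone, and, with a lacZ library left out, 439 to 831 held by 1 DOC1 library. Median fold percentiles per list moved by less than the spread between the libraries of a group in 45 of 54 cases. The 9 others were DOC1 1 and DOC1 3 in lists of equal length (45.4 and 48.3) and without DOC1 2 (33.5 and 48.7), DOC1 2 with the stricter threshold, without lacZ 2 and without DOC1 1 (55.0, 57.5 and 62.8), and lacZ 1 and lacZ 3 without lacZ 2 (68.0 and 55.6). No paired analysis was possible because the results come from no test. Distances to transcription starts and motifs were not run, as no genome of the build of the files was used here. Depth limits the record: the weakest listed peaks rest on 8 to 19 reads.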
